A study of Drosophila melanogaster with 48 samples.

Results

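The mRNAs described here end at 2 alternative places that lie more than 600 nt apart downstream of the same stop codon. They come from Drosophila melanogaster testes of the genotype bam-/-;hsBam, in which 3′ ends of polyadenylated RNA were sequenced. For each stop codon the reads of 12 total lysate libraries were pooled, sites within 50 nt were joined to the strongest one, and the 2 sites with most reads were kept if each held at least 5% of their sum. Of 11709 stop codons, 4766 had 1 site, 2014 had a second site below 5%, and 4929 had a pair. A spacing over 600 nt was found in 795 pairs (16.1% of pairs) from 783 genes, 12 of which had 2 such stop codons. The pairs were chosen by the position of sites and their reads summed over the 12 lysate libraries, so spacing and summed reads are a description. The selection rule itself uses neither time after heat shock nor the polysome pools.

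Every library came from pupae grown at 22 °C, heat shocked at 37 °C for 30 min and returned to 25 °C. Testes were labelled 0, 16, 24, 32, 48 and 72 h after heat shock, with 2 lysate libraries at each time. Polysome profiles were taken at 24, 48 and 72 h and combined by absorbance into 6 pools, from free RNA through 40S, 60S, 80S and 2-3 ribosomes up to 4+ ribosomes, again with 2 libraries per pool and time. All groups, including 0 h, share the loss of bam, the heat-shock transgene and the heat shock, and no library without heat shock was analysed here. The libraries are labelled biological replicates, with no word on separate crosses or dissections, and each p-value therefore rests on the spread between only 2 libraries per group, which may be technical. No exact test of 2 libraries against 2 can reach p = 0.05, so the tests below are fits across all pairs.

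Bam is the switch protein that ends the mitotic divisions of Drosophila spermatogonia; testes without it fill with dividing germ cells, and a heat-shock driven pulse of Bam lets many of them become spermatocytes together. An mRNA is released when its nascent transcript is cut and polyadenylated, and many genes can be cut at more than 1 place. Cutting at the proximal site, nearer the stop codon, gives a shorter 3′ untranslated region and leaves out whatever binding sites for proteins and small RNAs lie beyond it; cutting at the distal site keeps them. Both forms share the stop codon.

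Listed reads per library ran from 12041430 to 20668631 in lysates and from 445049 to 9568651 in the pools, where the lowest was the second 72 h 60S library. The authors listed a site only from 20 reads (lysates) or 10 reads (pools) upwards. A share of 0% or 100% below therefore means that 1 form was not listed at its site. The form was under that minimum there, or its reads may have been listed at a position further away, as below for rin. Marker levels were summed as counts per library size after scaling (CPM). bam itself ran from 11.4 to 104 CPM over the 12 lysate libraries, and reads of the transgene and of the mutant gene are not told apart. Spermatocyte markers (13 of 13 listed) summed to 68.1 and 67.9 at 0 h, 48.2 and 55.8 at 16 h, 177 and 194 at 24 h, 852 and 886 at 32 h, 1694 and 1743 at 48 h, and 1407 and 1652 at 72 h. Genes on a list of spermatid markers (18 of 18) summed to 28413 and 30033 at 72 h, against 16.7 and 12.2 at 0 h. These are sums of RNA and do not show that spermatids were present. Somatic markers were present in every lysate library and also moved with time. Fat body markers summed to 485 and 692 at 0 h, 2144 and 2099 at 16 h, 1833 and 1857 at 24 h, 635 and 748 at 32 h, and 452 and 393 at 72 h. Cyst cell markers (18 of 19 listed) had 453 and 596 at 0 h, 829 and 776 at 24 h, 509 and 497 at 32 h, and 426 and 411 at 72 h. Muscle markers had 1185 and 1697 at 0 h, 2350 and 1772 at 24 h, 1386 and 1392 at 32 h, and 1309 and 1150 at 72 h. These sums were lower at 32 h than at 24 h, the step at which the proximal share became higher. Accessory gland markers (389 to 4523) differed between libraries of 1 time. The part of these markers in the results below was not tested. In such bulk samples, a change in the cells present and a change in RNA per cell cannot be told apart, and time after heat shock cannot be told apart from age and recovery. The 2 libraries at 0 h stood further apart than those of any later time: the median proximal share of the pairs was 45% in replicate 1 and 35.8% in replicate 2. Replicate 1 lay above all 16 h and 24 h libraries (33.8% to 37.6%), and replicate 2 lay among them. Results against 0 h are therefore given with and without 0 h replicate 2 where that library moved them. The fit without replicate 2 keeps replicate 1, the library further from those of 16 h and 24 h, as its only 0 h library.

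Spacing ran from 603 to 29862 nt with quartiles at 736, 914 and 1249 nt, and 62 pairs lay over 2000 nt apart. The proximal site lay a median 255 nt past the stop codon and the distal site 1309 nt, against 148 and 377 nt in the 4134 closer pairs. The distal site held more pooled reads in 439 pairs and the proximal site in 356. These genes used many ends: the rows had a median of 6 joined sites and up to 46, and the pair took a median 84.2% of a row's reads, against 3 sites and 98.1% in closer pairs. By pooled reads the pairs ran from 45 to 670671 with a median of 3271. On the X chromosome lay 194, on 3R 180, on 3L 153, on 2R 137, on 2L 119 and on chromosome 4 another 12. Just inside the limit were stv (603 nt, 33.3% proximal in the pooled reads), ITP (606 nt, 74.3%) and TM9SF3 (606 nt, 31.2%), and just outside were CG15385 (599 nt, 13.3%), fzr (599 nt, 43.8%) and tok (600 nt, 11.7%).

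Of the 795 pairs, 778 could be placed on the dm6 genome through the protein isoform name, and their ends were set against annotated transcript ends within 50 nt. The distal site matched an annotated end in 507 (65.2%) and the proximal site in 201 (25.8%). The proximal share of 25.8% stood below that of pairs over 250 and up to 600 nt apart (36.5% of 1406), over 100 and up to 250 nt apart (34.6% of 1687) and up to 100 nt apart (37.2% of 960), while the distal share was close in all 3 (63.1%, 65.6% and 64%). Both ends were annotated in 112 pairs, only the distal in 395, only the proximal in 89 and neither in 182. The distal site lay past the end of the gene in 61 pairs (7.84%), against 20.6% at over 250 and up to 600 nt. In 46 pairs (5.91%) another gene on the same strand began between the sites, so reads at the distal site may belong to that gene; such genes are named where they occur.

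The 5 pairs with most reads belong to pAbp, Cam, Vha16-1, CycG and ATPsynC. pAbp encodes the cytoplasmic poly(A)-binding protein, and its proximal share stayed between 74.5% and 79.6% in all 12 lysate libraries (72 h against 0 h, log2 change of the proximal to distal ratio -0.00, limma adjusted p = 0.992 after Benjamini-Hochberg adjustment over all pairs, as everywhere below). Cam, encoding calmodulin, had 68.4% and 64.0% proximal at 72 h and 63.4% and 68.5% at 0 h (log2 -0.00, adjusted p = 0.996). Vha16-1, a proton pump subunit, had 9.16% and 8.99% at 72 h, against 6.41% and 11.3% at 0 h (log2 0.04, adjusted p = 0.96). CycG, a cyclin, passed the test with 92.2% and 92.4% at 72 h, against 65.9% and 88.2% at 0 h (log2 1.58, adjusted p = 0.0429); its lowest 72 h value lay above its highest 0 h value. ATPsynC, a subunit of ATP synthase, had 79.8% and 79.0% at 48 h, against 51.4% and 74.1% at 0 h (log2 1.20, adjusted p = 0.0231), and at 72 h did not pass (log2 0.65, adjusted p = 0.245). Each of these 2 calls ended in 3 of the 4 fits without 1 of its libraries, with adjusted p up to 0.166 for CycG (without 72 h replicate 1) and 0.11 for ATPsynC (without 0 h replicate 1).

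Across the time course the proximal share of widely spaced pairs became higher from 32 h on. For 431 pairs with enough reads in all 12 libraries, the median proximal share was 45% and 35.8% at 0 h, 36.9% and 35.9% at 16 h, 33.8% and 37.6% at 24 h, 47% and 47.8% at 32 h, 57.3% and 58.2% at 48 h, and 52% and 54.8% at 72 h. The 2006 closer pairs had 42% and 34% at 0 h, 54.8% and 54.9% at 48 h, and 50.7% and 52.9% at 72 h. Pairs that were under 20% proximal numbered 51 and 29 at 48 h and 59 and 56 at 72 h, against 134 and 153 at 0 h. Those over 80% proximal numbered 85 and 87 at 48 h and 70 and 86 at 72 h, against 91 and 42 at 0 h. The number over 80% was thus not above that of 0 h replicate 1.

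**Figure D1:**
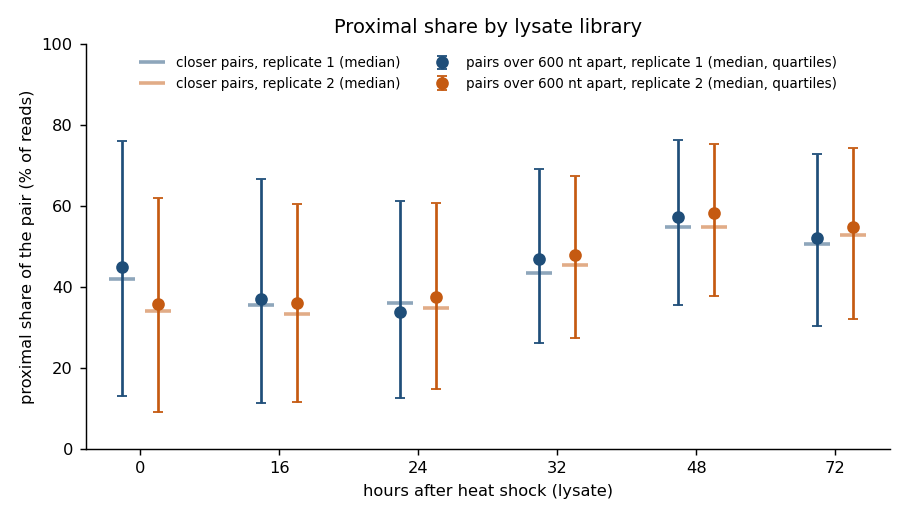
Median proximal share (%, y axis) of 431 site pairs over 600 nt apart in each of the 12 lysate libraries from 0 to 72 h after heat shock (x axis), with bars from the lower to the upper quartile; dashes mark the median of 2006 closer pairs. The 0 h libraries differ from each other (45% and 35.8%), and the 48 h libraries are the highest (57.3% and 58.2%).

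A pair was tested when enough of its libraries had at least 60 reads at the 2 sites. At 16 h against 0 h, 0 of 461 pairs passed (limma, 0.115% of all pairs passed; 27 at an unadjusted p under 0.05), and at 24 h 0 of 463 (0.0765% of all pairs; 64 unadjusted). At 32 h, 86 of 453 passed, 80 with a higher proximal share and 6 with a lower one (12.6% of all pairs, 11.2% higher and 1.36% lower). At 48 h, 169 of 458 passed, 159 higher and 10 lower (35.7% of all pairs, 31.5% higher and 4.21% lower), and at 72 h, 127 of 456 passed, 120 higher and 7 lower (27.3% of all pairs, 24.5% higher and 2.83% lower). The shares of widely spaced pairs that passed at 48 h (36.9%) and 72 h (27.9%) were near those of all pairs, so they say nothing particular to wide spacing. The median log2 change was 0.352 at 32 h, 0.566 at 48 h and 0.363 at 72 h, against 0.31, 0.762 and 0.578 over all pairs. Setting unlisted sites at the listing minimum where they were unlisted in both libraries of a group gave 0.225, 0.546 and 0.268, against 0.163, 0.653 and 0.407. Without 0 h replicate 2, the counts became 31 at 16 h, 92 at 24 h, 159 at 32 h (88 higher) and 204 at 72 h (127 higher). Leaving out 32 h replicate 1 or 2 left 47 or 35 at 32 h.

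Against 24 h, whose 2 libraries were closer together, 171 of 578 pairs passed at 72 h, 164 with a higher proximal share and 7 with a lower one (28.6% of all pairs, 26.7% higher and 1.90% lower). The median log2 change was 0.622, against 0.698 over all pairs, and 0.541 against 0.588 with unlisted sites at the listing minimum.

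**Figure D2:**
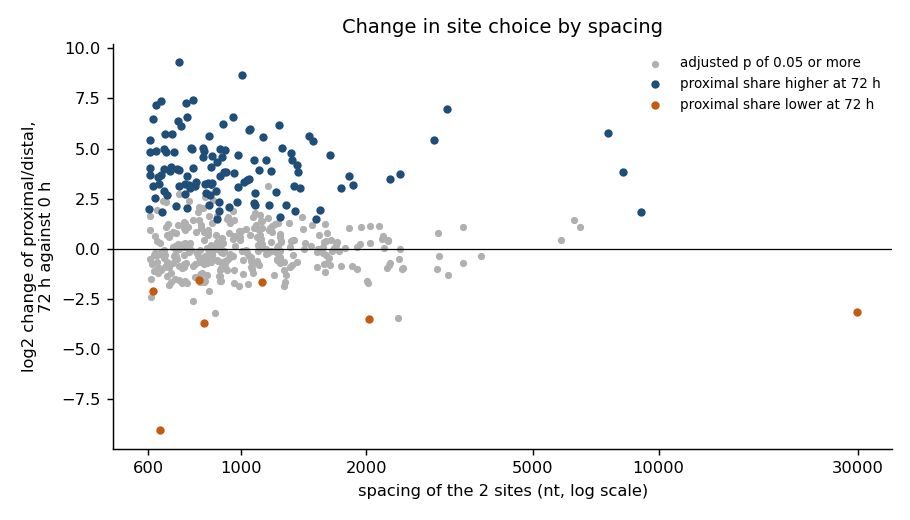
Log2 change of the proximal to distal ratio at 72 h against 0 h (y axis) against the distance between the 2 sites in nt (log x axis) for the 456 tested pairs over 600 nt apart. Blue points passed with a higher proximal share (120), orange points with a lower one (7) and grey points did not pass.

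In several genes nearly all ends were proximal at 72 h and nearly all distal at 0 h. m-cup (FBgn0038488), one of the genes transcribed in spermatids after meiosis, ends at 17145452 and 17144742 on 3R (dm6, minus strand), 710 nt apart, and only the proximal end is annotated. Its proximal form was unlisted in both 0 h libraries and made up 4.05% and 9.38% at 16 h, 10.3% and 16.7% at 24 h, 42.1% and 55.2% at 32 h, 91.0% and 91.8% at 48 h, and 94.7% and 95.7% at 72 h. The 2 libraries of each time stayed together, and every library from 32 h on lay above every library up to 24 h. The proximal to distal ratio was at least 314-fold higher at 72 h than at 0 h (adjusted p = 5.41e-06). In CPM, the proximal form had 225 and 270 at 72 h and was unlisted at 0 h, while the distal form had 12.5 and 12.2 at 72 h, against 27.6 and 20.2 at 0 h.

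orb (FBgn0004882) encodes a CPEB protein that binds 3′ untranslated regions and controls translation. Its ends at 23265654 and 23264647 on 3R (dm6, minus strand), 1007 nt apart, are both annotated. The proximal share was 3.96% and 0% at 0 h, 8.49% and 8.27% at 16 h, 0% and 4.54% at 24 h, 66.2% and 73.0% at 32 h, 90.1% and 85.5% at 48 h, and 91.3% and 93.7% at 72 h. The low and high libraries were separated by the step between 24 and 32 h, with no overlap. The log2 change was 6.19 (SE 0.54, adjusted p = 0.000251) at 32 h and 8.66 (SE 0.50, adjusted p = 3.95e-06) at 72 h. Both forms moved: by limma's voom test the proximal form rose by 7.25 on the log2 scale (adjusted p = 4.86e-06) and the distal form fell by 1.46 (adjusted p = 0.0174).

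CycB, the mitotic and meiotic cyclin B, switched later. Its proximal share was 33.3% and 0% at 0 h, 0% in both libraries at 16, 24 and 32 h, 87.5% and 82.5% at 48 h, and 94.5% and 97.0% at 72 h. These shares rest on 90 and 300 reads at 0 h and on 94 and 37 at 32 h, against 3118 and 3503 at 72 h. The log2 change at 72 h was 7.39 (SE 0.96, adjusted p = 0.000297); the proximal form rose by 7.43 (adjusted p = 1.43e-07) and the distal form had a log2 change of -0.02 (adjusted p = 0.984). The sites of cnn, which encodes the centrosome protein centrosomin, lie 628 nt apart. Its proximal share was 5.02% and 0% at 0 h, 10.1% and 0% at 16 h, 0% at 24 h, 53.5% and 53.6% at 32 h, 89.5% and 88.7% at 48 h, and 83.4% and 87.3% at 72 h, a log2 change of 7.15 at 72 h (SE 0.61, adjusted p = 1.7e-05). The low libraries were all at or before 24 h.

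spas encodes the microtubule-severing enzyme spastin. Its proximal form was unlisted up to 24 h in all 6 libraries and made up 29.2% and 31.5% at 32 h, 80.0% and 67.3% at 48 h, and 79.3% and 82.7% at 72 h (at least 77.5-fold higher at 72 h than at 0 h, adjusted p = 1.2e-05). Usp10 encodes a deubiquitinase, and its ends at 892225 and 895342 on 3L (dm6, plus strand) lie 3117 nt apart. The short form was again unlisted up to 24 h and then made up 8.22% and 8.72% at 32 h, 66.1% and 60.1% at 48 h, and 63.4% and 69.4% at 72 h (at least 63.4-fold, adjusted p = 7.87e-06). Neither gene had overlapping libraries between 72 and 0 h. foi, a zinc transporter, had 75.9% and 82.7% proximal at 72 h, against 0% and 5.11% at 0 h (log2 6.58, SE 0.58, adjusted p = 1.94e-05). Ndfip, an adaptor of Nedd4-type ubiquitin ligases, had 61.4% and 76.9% at 72 h, against 1.46% and 0% at 0 h (log2 7.41, SE 0.88, adjusted p = 0.000122).

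CG6051 and chinmo reached their highest proximal share at 48 h and were lower at 72 h. CG6051 had no listed proximal reads at 0 and 16 h, 7.18% and 15% at 24 h, 55% and 59.8% at 32 h, 87.3% and 85.9% at 48 h, and 66.7% and 68.1% at 72 h. In the 0 h libraries 68 and 28 reads were listed at another position within 100 nt of the proximal site. With these added, the log2 change at 48 h was 5.27 (adjusted p = 4.13e-05). chinmo encodes a BTB zinc finger transcription factor of early germ and cyst cells. Its sites lie 7558 nt apart with the start of cpb between them, and its proximal share was 0% at 0 and 16 h, 13.9% and 36.6% at 24 h, 12.7% and 45.7% at 32 h, 91.5% and 87.1% at 48 h, and 65.9% and 80.2% at 72 h (at least 86.7-fold at 48 h).

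**Figure D3:**
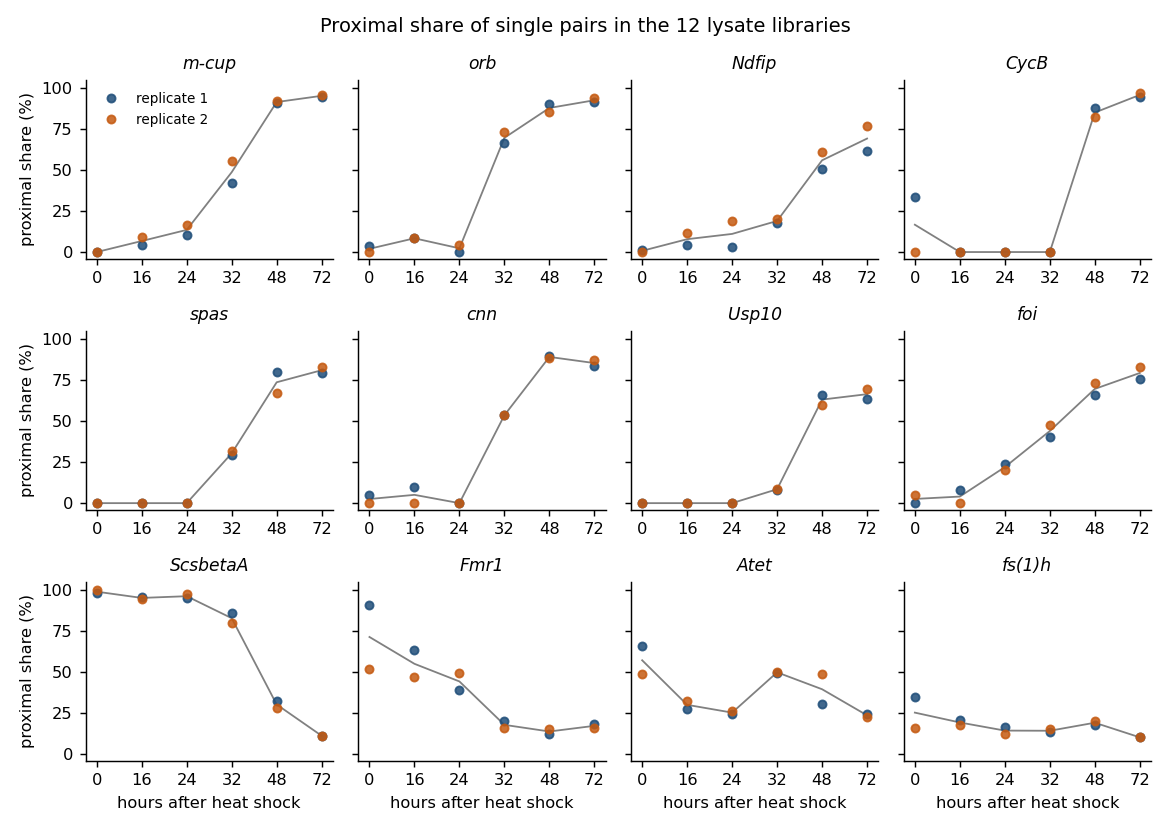
Proximal share (%, y axis) of 12 genes in the 12 lysate libraries from 0 to 72 h after heat shock (x axis, evenly spaced times); points are libraries and the grey line joins the means of 2. m-cup, orb and cnn have their step between 24 and 48 h, CycB between 32 and 48 h, and ScsbetaA moves the other way, to 11.1% and 11.4% at 72 h.

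With all libraries fitted, 7 pairs passed with a lower proximal share at 72 h against 0 h. Many more passed lower in the fit without 0 h replicate 2, so this small number depends on that library. That fit had replicate 1, with the higher median share, as its only 0 h library. Against 24 h, 7 of 578 pairs passed lower at 72 h. The genes named here are those of the fit with all libraries. ScsbetaA (FBgn0037643, listed as skap) encodes a subunit of succinyl-CoA synthetase, an enzyme of the mitochondrial citric acid cycle, and ends at 8942130 and 8942770 on 3R (dm6, plus strand). The proximal share was 98.1% and 100% at 0 h, 95.7% and 94.8% at 16 h, 94.9% and 97.7% at 24 h, 85.8% and 80.0% at 32 h, 32.5% and 28.1% at 48 h, and 11.1% and 11.4% at 72 h. From 32 h on the libraries of each time lay below all earlier ones. The log2 change at 72 h was -9.04 (SE 0.50, adjusted p = 3.74e-06). The distal form had 386 and 455 CPM at 72 h, against 2.15 and 0 at 0 h (log2 8.32, adjusted p = 1.1e-07), and the proximal form 48.3 and 58.5, against 113 and 68.3 (log2 -0.73, adjusted p = 0.0938).

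Fmr1, the fly homologue of the fragile X RNA-binding protein and a repressor of translation, has ends at 10102796 and 10101977 on 3R (dm6, minus strand), 819 nt apart. Its proximal share was 90.8% and 52.1% at 0 h, 63.4% and 46.8% at 16 h, 39.0% and 49.7% at 24 h, 20.1% and 15.7% at 32 h, 12.4% and 15.3% at 48 h, and 18.4% and 16.2% at 72 h. The 0 h libraries were far apart, but both lay above every library from 32 h on. The log2 change was -3.69 (SE 0.71, adjusted p = 0.00303) at 72 h; the distal form rose by 4.58 (adjusted p = 7.66e-05) and the proximal form had 0.58. Fitted on the 0 h and 72 h libraries alone, the change of -3.78 had an adjusted p of 0.0588.

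The other lower shares at 72 h were smaller or rest on doubtful sites. Atet, an ABC transporter, had 24.6% and 22.8% at 72 h, against 65.7% and 48.8% at 0 h (log2 -2.09, adjusted p = 0.00448), but its 24 h libraries already had 24.3% and 26.4%. fs(1)h, a BET family chromatin protein, had 10.4% and 10.2%, against 34.7% and 16.0% (log2 -1.56, adjusted p = 0.0281) and lost its call in 3 of the 4 fits without 1 library (log2 -0.73, adjusted p = 0.178 without 0 h replicate 1). Spred, a relative of Sprouty that restrains Ras signalling, had 36.8% and 46.6%, against 100% in both 0 h libraries (at least 5.59-fold lower); the gene CG12857 begins between its sites. rumpel, a solute transporter with the widest spacing of 29862 nt, had 60.5% and 44.5%, against 100% in both (at least 4.48-fold lower), and 2 non-coding RNA genes begin between its sites. Ras85D, the Ras GTPase, had 8.47% and 10.5%, against 25.8% and 22.3% (log2 -1.63, adjusted p = 0.0198), with rump beginning in between, and lost its call in 3 of 4 such fits (adjusted p up to 0.152, without 72 h replicate 1). At 48 h, rgn (log2 -3.09, adjusted p = 0.0258), the axon guidance receptor robo2 (-2.51, adjusted p = 0.0247) and CG11889 (at least 2.61-fold lower, adjusted p = 0.0123) also passed. rgn lost its call without 0 h replicate 1 (adjusted p = 0.168) or 48 h replicate 2 (0.128), robo2 without 0 h replicate 1 (0.14), 48 h replicate 1 (0.111) or 48 h replicate 2 (0.0771), and CG11889 without 48 h replicate 2 (0.0701).

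Shares say only that the forms changed unequally, so the level of each form was tested over all 22066 sites. At 72 h against 0 h the proximal form passed in 289 of 726 pairs, 243 higher and 46 lower, with a median log2 change of 0.49; the distal form passed in 104 of 732, 53 higher and 51 lower, with a median of -0.0645. Over all sites 29.3% passed higher and 5.53% lower, with a median of 0.386. At 48 h, 363 proximal forms passed (269 higher, 94 lower, median 0.54) and 170 distal forms (38 higher, 132 lower, median -0.266), against 28.7% higher and 9.30% lower over all sites (median 0.358). The distal count became 276 without 0 h replicate 2, and 61 or 53 without 72 h replicate 1 or 2. Of the 120 pairs with a higher proximal share at 72 h, the proximal form alone passed higher in 87, while in 23 the proximal form passed higher and the distal form lower. In 3 pairs only the distal form passed, lower, in 1 both forms passed higher, and in 6 neither did. At 48 h the matching counts among 159 pairs were 94 with only the proximal form, 53 with both moving apart, 8 with only the distal form lower, 1 with both higher and 3 with neither.

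**Figure D4:**
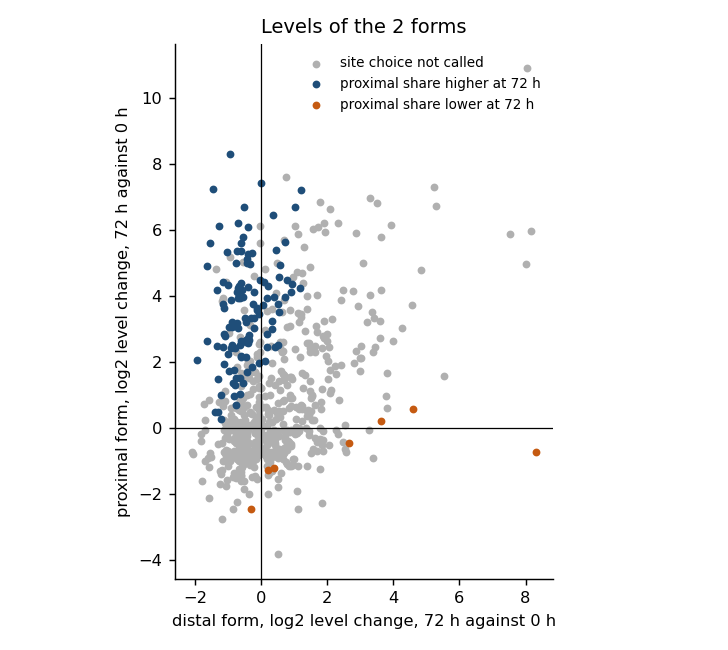
Log2 level change at 72 h against 0 h of the proximal form (y axis) and the distal form (x axis) of each pair over 600 nt apart; colours mark pairs whose proximal share passed higher (blue), passed lower (orange) or was not called (grey). Of the 120 blue points, the proximal form alone passed higher in 87, up to 8.29 for m-cup. In 23 the proximal form passed higher and the distal form lower, in 3 only the distal form passed, lower, and in 1 both passed higher.

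Of the 5 pairs with the widest spacing and at least 1000 pooled reads, 4 have another gene's start between the sites: rumpel, mamo (AMPdeam between), chinmo and sigmar (CG30183 between). The exception is CG7564 (FBgn0036734), with ends at 17515886 and 17524966 on 3L (dm6, plus strand), 9080 nt apart, where the distal site lies past the annotated end of the gene. Its proximal share was 56.0% and 35.8% at 0 h, 39.6% and 26.8% at 16 h, 25.9% and 39.8% at 24 h, 66.7% and 57.7% at 32 h, 82.2% and 86.6% at 48 h, and 77.7% and 74.0% at 72 h. It passed at 48 h (log2 2.65, adjusted p = 0.00238) and at 72 h (log2 1.82, adjusted p = 0.0318); the 72 h call ended in 3 of the 4 fits without 1 library, with an adjusted p up to 0.155 without 72 h replicate 1. mamo, a BTB zinc finger transcription factor with germ cell functions, had 32.2% and 29.2% at 48 h, against 0% and 4.19% at 0 h (log2 4.59, adjusted p = 0.000387).

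By function, genes on a list of ubiquitin ligases and other ubiquitin pathway proteins were among those that switched. Of 10 such genes with a widely spaced pair, 9 were tested; 7 passed with a higher proximal share at 48 h and 5 at 72 h, beside 31.5% and 24.5% of all pairs, with median log2 changes of 3.05 and 2.17 (1.88 at 72 h with unlisted sites at the listing minimum), against 0.762 and 0.578 over all pairs. slmb, an F-box protein that brings substrates to its ligase, had 8.71% and 9.18% proximal at 0 h, 12.6% and 11.2% at 16 h, 13.9% and 17.6% at 24 h, 57.4% and 66.5% at 32 h, 66.1% and 66.6% at 48 h, and 49.3% and 49.8% at 72 h. Its libraries stepped up between 24 and 32 h without overlap (48 h against 0 h, log2 4.33, SE 0.33, adjusted p = 1.54e-05). Cul3, a cullin scaffold, had 89.8% and 91.9% at 72 h, against 35.3% and 43.5% at 0 h (log2 3.93, adjusted p = 2.19e-05). ctrip, a HECT-type ligase, had 81.4% and 89.1%, against 69.8% and 48.7% (log2 2.17, adjusted p = 0.00705). Ubc6, a ubiquitin-conjugating enzyme, passed at 48 h (log2 1.57, adjusted p = 0.0201) and not at 72 h (log2 0.99, adjusted p = 0.152). Without 0 h replicate 2, neither ctrip at 72 h (adjusted p = 0.116) nor Ubc6 at 48 h (adjusted p = 0.53) passed. faf, a deubiquitinase among the 7 calls at 48 h, lost its call in 3 of 4 such fits (log2 0.45, adjusted p = 0.537 without 0 h replicate 2).

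Of 16 genes of BMP, EGFR, Hedgehog, Notch and JAK-STAT signalling, 9 were tested, and 6 passed higher and 1 lower at 48 h and 5 higher and 1 lower at 72 h, beside the same shares of all pairs, with median log2 changes of 3.45 and 2.83 (3.45 and 1.88 with unlisted sites at the listing minimum). slmb, Cul3, neur and Smurf stand in both lists. The calls of slmb, Cul3 and neur at 48 h and 72 h are counted in both, so the counts of the lists are not independent. drk, the adaptor that links receptor tyrosine kinases to Ras, had 44.2% and 42.6% proximal at 72 h, against 4.97% and 14.2% at 0 h (log2 2.83, adjusted p = 0.0013). Among 15 translational repressors and mRNP proteins, 3 of 12 tested passed higher and 1 lower at 48 h (median -0.283), and 2 higher and 1 lower at 72 h (median -0.507). Among 10 regulators of 3′ ends related to ELAV, 1 of 8 passed higher and 1 lower at 48 h (median 0.0707), and 1 higher at 72 h (median 0.377). heph, the polypyrimidine tract-binding protein, was that gene, with 89.9% and 88.9% proximal at 72 h, against 9.3% and 23.2% at 0 h (log2 5.40, adjusted p = 6.41e-05). sqd, an hnRNP protein, was the 1 lower at 48 h (log2 -1.43, adjusted p = 0.0263; 0.128 without 0 h replicate 1). Among 15 protein kinases and phosphatases, 2 of 12 passed higher at each time (median -0.0633 at 48 h and -0.148 at 72 h). Over all pairs, 31.5% passed higher and 4.21% lower at 48 h, and 24.5% higher and 2.83% lower at 72 h. Differences between these lists and all pairs were not tested. The cleavage and polyadenylation machinery itself had 14 site pairs, of which 0 were over 600 nt apart.

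The polysome pools are separate libraries that the choice of pairs did not use, and 718 of the 795 pairs were found in them, matched through their gene and how far each end lies from the stop codon. Averaged over the 6 pools, 167 of 316 pairs passed at 72 h against 24 h, 154 with a higher proximal share and 13 with a lower one (52.9% of all pairs passed, 48.2% higher and 4.69% lower). Across the 313 pairs measured in both, the log2 changes in lysates and pools at 72 h against 24 h had a Pearson r of 0.867 and a Spearman rho of 0.776 as a description over pairs. Of 102 of these pairs that passed higher in lysates, 99 passed higher in the pools, and of 4 that passed lower, 3 passed lower. Without the first 72 h 60S library 46 of 89 tested pairs passed, the second having few reads. spas (log2 7.72, SE 0.33, adjusted p = 2.09e-14), elfless (7.69, adjusted p = 8.06e-14) and m-cup (7.39, SE 0.54, adjusted p = 1.51e-10) had higher proximal shares in the pools; these fitted values depend on the 5 reads put in for unlisted sites. Lower proximal shares were found in ScsbetaA (-6.97, adjusted p = 5.94e-14), in msi, the RNA-binding protein Musashi (-2.83, adjusted p = 1.49e-06), and in CG4612 (-2.43, adjusted p = 0.0015). In lysates, msi had a log2 change of 0.06 over the same span (adjusted p = 0.967). Atet changed by 1.43 in the pools (adjusted p = 0.0017) and by -0.13 in lysates.

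Within a time, the pools separate RNA by the number of ribosomes on it. For 196 pairs with enough reads in 35 pool libraries, the median proximal share at 24 h was 61.8% and 55.1% with 4+ ribosomes, against 36.4% and 34.9% in free RNA. At 48 h it was 69.6% and 68%, against 49.5% and 54%, and at 72 h 63.6% and 61.1%, against 57.1% and 56.9%. The 40S pool had 53% and 47.4% at 24 h, between free RNA and the 80S pool, 70.2% and 64.8% at 48 h, and 75.3% and 76.5% at 72 h. The 80S pool had 61.2% and 60.5% at 24 h, 75% and 71.8% at 48 h, and 69.2% and 69.7% at 72 h. In 972 closer pairs the 4+ pool had 43.9% and 41.6% at 24 h, against 32.2% and 33.1% in free RNA.

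**Figure D5:**
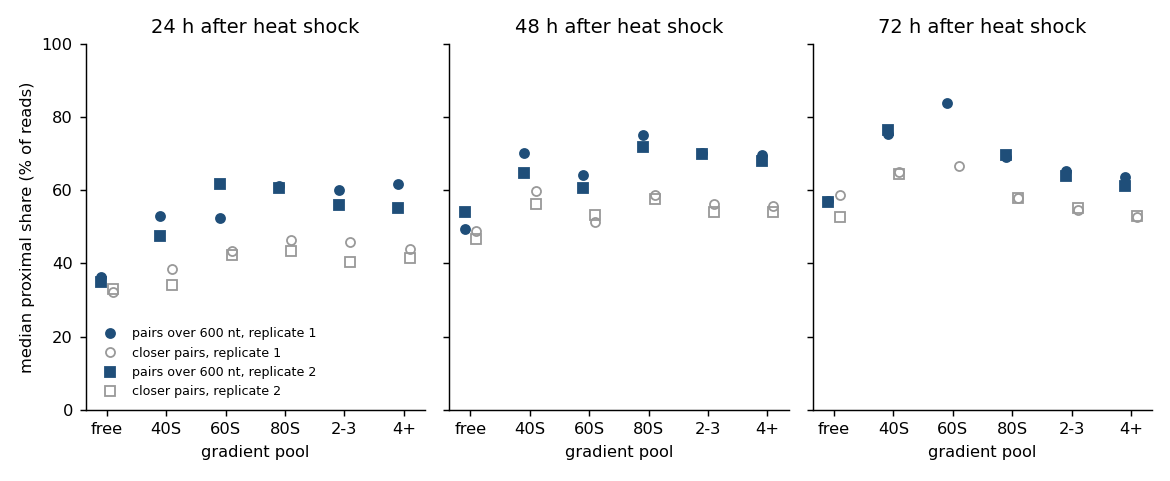
Median proximal share (%, y axis) in 6 polysome pools (x axis) at 24, 48 and 72 h, for 196 pairs over 600 nt apart (filled points) and 972 closer pairs (open points); each point is 1 library, and the second 72 h 60S library is not shown. The 24 h free libraries (36.4% and 34.9%) lie below all other 24 h pools of the widely spaced pairs.

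Pair by pair at 24 h, 62 of 445 passed between 4+ ribosomes and free RNA, 60 with a higher proximal share on 4+ ribosomes and 2 with a lower one (8.14% of all pairs passed, 7.02% higher and 1.12% lower). The share that passed ran with spacing: 13.9% over 600 nt, 9.15% at over 250 and up to 600 nt, 6.21% at over 100 and up to 250 nt and 3.77% up to 100 nt; the differences between these classes were not tested. The median log2 difference was 1.06, against 0.578 over all pairs, and 0.793 against 0.218 with unlisted sites at the listing minimum. At 48 h, 25 of 410 passed, 24 higher and 1 lower (3.21% of all pairs, 2.85% higher and 0.361% lower), with a median of 1.01, against 0.485. At 72 h, 25 of 407 passed, 15 higher and 10 lower (4.63% of all pairs, 1.78% higher and 2.85% lower), with a median of 0.206, against -0.139; with unlisted sites at the minimum both medians were 0. Leaving out 1 library gave counts of 21 or 20 (without free replicate 1 or 2) and 32 (without 4+ replicate 1) at 24 h. At 48 h it gave 6 or 15 (without free replicate 1 or 2) and 12 or 15 (without 4+ replicate 1 or 2). At 72 h it gave 1 or 9 (without free replicate 1 or 2) and 6 or 10 (without 4+ replicate 1 or 2).

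sty, the inhibitor Sprouty of receptor tyrosine kinase signalling, has sites 1655 nt apart. Free RNA at 24 h had only the distal form, with 184 and 138 reads, while 4+ ribosomes had 70.0% and 100% proximal and 80S had 67.8% and 68.7%. The ratio was at least 69.7-fold higher on 4+ ribosomes than in free RNA (adjusted p = 0.000332); the distal site used here lay 30 nt from its lysate position. At 72 h the 4+ pool had 80.9% and 78.9%, against 0% in both free libraries (adjusted p = 0.0319). CG12128, with sites 2177 nt apart, had 100% in both 4+ libraries at 24 h, against 34.8% and 34.1% in free RNA (at least 57.6-fold higher, adjusted p = 1.68e-05), and 100% in both at 48 h, against 55% and 60.8% (at least 29.1-fold). emb, the nuclear export receptor exportin, had 100% in both 4+ libraries at 24 h, against 27.6% and 21.2% in free RNA (adjusted p = 0.0149). In 1 of the 4+ libraries 12 reads lay within 100 nt of its distal site, and with such reads added the adjusted p was 0.00601. At 48 h, CG6959 had 83.0% and 79.7%, against 0% in both free libraries (at least 62.8-fold, adjusted p = 0.000861). tyf, a translation activator of the circadian gene period, had 100% in both 4+ libraries, against 32.1% and 56.4% in free RNA (at least 23.9-fold, adjusted p = 0.0018). Without 1 library, the calls of emb ended in 3 of 4 fits (adjusted p up to 0.115, without 4+ replicate 1), of tyf in 1 (0.107, without free replicate 1) and of sty at 72 h in all 4 (up to 0.203, without 4+ replicate 2).

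noc (FBgn0005771), a zinc finger protein, has ends at 14493193 and 14494022 on 2L (dm6, plus strand), 829 nt apart, and passed at all 3 times. Its 4+ libraries had 78.7% and 66.5% proximal at 24 h, against 14.6% and 22.8% in free RNA (log2 3.59, adjusted p = 0.0105). At 48 h they had 80.0% and 80.1%, against 8.48% and 15.5% (log2 4.97, adjusted p = 0.00443). At 72 h they had 88.1% and 71.5%, against 14.3% and 13.4% (log2 4.69, SE 0.99, adjusted p = 0.00723). The groups did not overlap at any of the 3 times. wdb, a regulatory subunit of the phosphatase PP2A with sites 2410 nt apart, had 46.0% and 47.7% on 4+ ribosomes at 24 h, against 8.55% and 8.99% in free RNA (log2 3.19, SE 0.61, adjusted p = 0.00217), and 61.8% and 65.6% at 48 h, against 15.9% and 9.57% (log2 3.6, adjusted p = 0.00443). In the lysates its balance at 72 h against 0 h differed by a log2 of -0.03 (adjusted p = 0.974). retn, an ARID transcription factor, had 60.0% and 68.3% on 4+ ribosomes at 72 h, against 0% in both free libraries (at least 10.4-fold, adjusted p = 0.0113). With 1 library left out, noc kept a positive difference but lost its call in 2 of 4 fits at 24 h (adjusted p up to 0.121, without free replicate 1), 1 at 48 h (0.124, without free replicate 1) and 3 at 72 h (up to 0.0928, without 4+ replicate 1). wdb lost its call at 48 h without free replicate 2 (0.058), and retn lost its in all 4 fits (up to 0.144). By list, 3 of 13 mRNP protein genes (median log2 2.09), 3 of 15 kinase and phosphatase genes (median 1.52) and 0 of 10 signalling genes (median 0.00457) passed higher at 24 h, beside 7.02% of all pairs (median 0.578). Of the 3 mRNP genes only Fmr1 held its call in all 4 fits without 1 library: pAbp lost its in 3 (adjusted p up to 0.124, without 4+ replicate 1) and lost in 4 (up to 0.122, without free replicate 1), and both had a proximal site matched 38 nt or more away. In the kinase list Pp4-19C lost its call in all 4 (log2 3.33 without free replicate 1) and puc in 2 (log2 2.60 without free replicate 1). Only wdb held its 24 h call in all 4.

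Other genes had more of the distal form on ribosomes. scyl, an inhibitor of TOR signalling, ends at 11254879 and 11255890 on 3L (dm6, plus strand), 1011 nt apart. At 24 h its proximal share was 68.3% and 77.2% in free RNA, 54.6% and 59.7% in 40S, 32.8% and 45.6% in 60S, 38.5% and 39.1% in 80S, 33.8% and 28.0% with 2-3 ribosomes, and 25.3% and 26% with 4+ ribosomes. All ribosome-bearing libraries lay below both free libraries (4+ against free, log2 -2.94, SE 0.42, adjusted p = 0.000151). Pkc98E, a protein kinase C, had 22.6% and 21.6% with 4+ ribosomes at 24 h, against 87.7% and 89.7% in free RNA (log2 -4.79, adjusted p = 0.0128), with CG11837 beginning between its sites. chinmo had 19.3% and 9.93% with 4+ ribosomes at 48 h, against 76.9% and 42.3% in free RNA (log2 -3.34, adjusted p = 0.0188), with cpb beginning between its sites. Pkc98E lost its call in 3 of 4 fits without 1 library (adjusted p up to 0.135, without free replicate 2) and chinmo in 3 (up to 0.564, without free replicate 1).

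At 72 h the genes with a lower proximal share on 4+ ribosomes than in free RNA included CG31523 and rogdi. Both had passed with a higher proximal share in the lysates at 72 h against 0 h. In the 3 genes that follow the proximal form was still the larger part on 4+ ribosomes. elfless (FBgn0032660), a RING finger protein, ends at 18010439 and 18009641 on 2L (dm6, minus strand), and its lysates at 72 h had 92.5% and 91.4% proximal. In its pools at 72 h the share was 99.0% and 97.6% in free RNA, 94.2% and 94.3% in 40S, 95.5% and 86.8% in 80S, 92.2% and 78.8% with 2-3 ribosomes, and 73.3% and 72.2% with 4+ ribosomes (4+ against free, log2 -4.56, SE 0.77, adjusted p = 0.00157). CG31523 (FBgn0051523), a fatty acid elongase, ends at 4466466 and 4465420 on 3R (dm6, minus strand). It had 98.5% and 97.2% in free RNA, 97.4% and 97.0% in 40S, 82.0% and 89.6% in 80S, 82.7% and 68.3% with 2-3 ribosomes, and 58.3% and 67.2% with 4+ ribosomes (4+ against free, log2 -4.75, adjusted p = 0.00716). rogdi had 69.2% and 75.3% with 4+ ribosomes, against 98.9% and 100% in free RNA (log2 -5.03, adjusted p = 0.0196). In all 3 genes both 4+ libraries lay below both free libraries. The calls ended without free replicate 1 (adjusted p = 0.0603 for elfless, 0.113 for CG31523 and 0.112 for rogdi), that of CG31523 also without 4+ replicate 1 (0.0592), and that of rogdi in each of the 4 fits without 1 library. Gbeta13F also passed, with a higher proximal share on 4+ ribosomes; its distal form was unlisted in all 4 libraries and the call was lost (log2 2.97, adjusted p = 0.328) when sites within 100 nt were added, so no fold is given.

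Between 4+ ribosomes and 80S few pairs differed. At 24 h 3 of 429 passed, 2 higher and 1 lower (0.766% of all pairs passed, 0.403% higher and 0.363% lower), and the count was 1 or 8 without 80S replicate 1 or 2 and 12 without 4+ replicate 2. At 48 h 0 of 387 passed (limma; 0.124% of all pairs, 28 at an unadjusted p under 0.05). At 72 h 8 of 432 passed, all with a lower proximal share on 4+ ribosomes (0.649% of all pairs, 0.512% lower), and the count was 1 without 80S replicate 2 and 0 or 4 without 4+ replicate 1 or 2. orb and cnn, taken up here for their change in the lysates, were among them. At 72 h the proximal share of orb was 84.4% and 56.1% in free RNA, 93.5% and 93.2% in 40S, 92.2% and 90.8% in 80S, 53.0% and 72.2% with 2-3 ribosomes, and 19.7% and 29.9% with 4+ ribosomes (4+ against 80S, log2 -4.95, SE 0.89, adjusted p = 0.00636). Both 4+ libraries were the lowest of the pools, and against free RNA the difference was -2.9 (adjusted p = 0.0765). cnn had 88.5% and 100% in free RNA, 100% and 94.1% in 80S, 74.5% and 35.4% with 2-3 ribosomes, and 50% and 45.6% with 4+ ribosomes (4+ against 80S, log2 -5.31, adjusted p = 0.0251; against free, -3.88, adjusted p = 0.0396). PDZ-GEF, an exchange factor for the GTPase Rap, had 0 and 14 proximal and 38 and 30 distal reads with 4+ ribosomes, against 226 and 243 proximal and no listed distal reads in 80S (at least 66.9-fold lower, adjusted p = 0.00636). Without 1 library the 4+ to 80S call ended in 3 of 4 fits for orb (adjusted p up to 0.0982, without 80S replicate 2), in all 4 for cnn (up to 0.341, without 80S replicate 1) and in 2 for PDZ-GEF (up to 0.191, without 4+ replicate 1). rin, the fly G3BP protein, and at 24 h Ric, a small GTPase, passed too, but with sites up to 100 nt away added they did not (adjusted p = 0.764 and 0.741). In the 4+ libraries 1157 and 2622 reads of rin were listed within 100 nt of its proximal site.

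ScsbetaA and Fmr1, whose distal share was higher late in the lysates, were also followed in the pools. ScsbetaA at 72 h had 31.5% and 32.9% proximal in free RNA, 20.4% and 30.3% in 80S, and 59.5% and 56.9% with 4+ ribosomes (4+ against free, log2 1.55, adjusted p = 0.253). Fmr1 at 24 h had 44.7% and 40.0% in free RNA, 79.7% and 79.3% in 80S, and 100% and 84.2% with 4+ ribosomes (log2 5.04, adjusted p = 0.000749). At 72 h it had 34.4% and 29.6% with 4+ ribosomes, against 22.8% and 26.2% in free RNA (log2 0.53, adjusted p = 0.731). Whether the 4+ to free difference itself changed between 24 and 72 h was tested with an interaction term in a comparison added after the data were seen: 5 of 352 pairs passed (1.03% of all pairs), Fmr1 among them, and with sites within 100 nt added 2 passed. Between 24 and 48 h 0 of 370 passed (limma; 0.0476% of all pairs, 18 at an unadjusted p under 0.05).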

How the data were processed

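The deposited tables list, per library and stop codon, 3′ end positions with their read counts; each cell joins positions and counts, so the authors' values are neither a plain count table nor normalized. Libraries were made with the Lexogen QuantSeq 3′ forward kit, per the labels' protocols, and Bowtie 0.12.8 and dm6 are named in the submitters' processing notes; other steps are not given in the sources used here. The lowest listed values were 20 reads (lysates) and 10 (pools), and sites were at least 51 nt apart, which the authors had merged within each library.

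Lysate stop codon positions matched dm6 within 3 nt for 23.9% (plus strand) and 23.2% (minus strand) of pairs, so rows were placed by protein isoform name in the Ensembl 115 annotation, and pool sites were matched by distance from the stop codon within 50 nt; 89.9% of 1436 member sites lay within 5 nt, and 581 pairs had both sites so close. dm6 positions are those of the pools' files.

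Site choice was tested with limma 3.58.1 (R 4.3.3) on log2 of proximal over distal reads, with 10 (lysates) or 5 (pools) reads for an unlisted site, libraries with at least 60 or 30 reads at the pair, weights from reads, robust trended moderation, all 12 lysate or all 36 pool libraries, two-sided, Benjamini-Hochberg adjusted over all pairs, at 0.05. Levels used voom on all joined sites with trimmed-mean scaling. The scripts were tested on simulated data. The minimum folds come from mean log2 ratios with unlisted sites put at the listing minimum. They hold only if an unlisted form was under that minimum, and allow for neither counting error nor the spread between libraries. QuantSeq reads without molecular identifiers are not independent molecules.

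Named genes passed the test with a mean of at least 100 reads per library and no overlap of replicates, ranked by size of change; the pairs with most reads, the widest pairs and those nearest 600 nt were added. Gene lists, members and rule were chosen with earlier results of these data known. Replicate numbers did not pair libraries: deviations of same-numbered libraries correlated with a median of -0.0344 over 15 pairs of lysate groups and 0.0349 over 153 of pool groups. Alternatives were 1 read for unlisted sites, doubled minimum reads, only the groups compared, a replicate block, each replicate left out, and, added after seeing the data, the 60S pool left out, sites up to 100 nt away added and only sites matched within 5 nt.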

Additional observations from a re-analysis of the deposited data

Results flagged for a closer look

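In 5 pairs the difference between 4+ ribosomes and free RNA was itself different at 72 h than at 24 h, by an interaction term in the limma fit (adjusted p over all pairs), a test added after seeing the data. In all 5 the fitted difference of 4+ ribosomes to free RNA in the proximal to distal ratio was lower at 72 h. This direction is not particular to wide spacing. Over all pairs 21 of 2038 passed (1.03%), 20 of them lower, against 5 of 352 widely spaced pairs (1.42%). The median change was -0.807 over all pairs and -0.809 in widely spaced pairs. The change of the log2 difference was -7.49 for ago (adjusted p = 0.0107), -5.99 for CG43954 (0.0303), -5.03 for CG12128 (0.0316), -4.77 for CG1172 (0.0151) and -4.51 for Fmr1 (0.0303). These fitted values depend on the 5 reads put in for unlisted sites. The distal form was unlisted in both free libraries at 72 h for ago. For CG12128 it was unlisted in both 4+ libraries at 24 h and at 72 h. The direction and size of the CG12128 change therefore rest on the reads put in and are not determined. ago, an F-box protein of a ubiquitin ligase, had 86.0% and 78.9% proximal with 4+ ribosomes at 72 h, against 100% in both free libraries, while at 24 h it had 91.0% and 93.1%, against 41.8% and 0%. CG43954 had 34.3% and 40.4% at 72 h, against 82.5% and 66.7%, and 80.8% and 35.9% at 24 h, against 10.6% and 6.93%. CG1172 had 74.3% and 55.5% at 72 h, against 91.1% and 87.0%, and 74.3% and 42.1% at 24 h, against 19.6% and 25.8%. CG12128 had 100% in both 4+ libraries at 72 h, against 97.2% and 90.9% in free RNA, and 100% in both at 24 h, against 34.8% and 34.1%. Fmr1 had 34.4% and 29.6% at 72 h, against 22.8% and 26.2%, and 100% and 84.2% at 24 h, against 44.7% and 40.0%. With sites up to 100 nt away added, CG12128 (-5.03, adjusted p = 0.0492) and CG1172 (-4.78, adjusted p = 0.0272) still passed, and ago (-3.81, adjusted p = 0.15), CG43954 (-5.80, adjusted p = 0.0961) and Fmr1 (-1.97, adjusted p = 0.115) did not.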

How the results depend on the processing

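Counts of pairs that passed were within 1.5 times the reported ones for the alternatives not named here, and no named gene changed direction. Fitting only the libraries compared, with few degrees of freedom, gave 1 pair at 32 h against 0 h, 25 for 4+ ribosomes against free RNA at 24 h and 70 at 72 h, and 1 for 4+ ribosomes against 80S at each of 24 and 48 h. With 1 read for an unlisted site, 7 pairs passed for 4+ against 80S at 24 h, 15 for 4+ against free at 72 h and 1 for 4+ against 80S at 72 h. With the minimum reads doubled, 111 passed in the pools at 72 h against 24 h and 4 for 4+ against 80S at 72 h. With only sites matched within 5 nt, 0 passed for 4+ against 80S at 24 h, and with sites up to 100 nt away added, 2 passed for the change of 4+ against free between 24 and 72 h. The causes were not tested.

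Leaving out each replicate gave 0 to 31 pairs at 16 h, 0 to 92 at 24 h, 35 to 159 at 32 h, 139 to 246 at 48 h and 101 to 204 at 72 h against 0 h. It gave 53 to 276 for the level of the distal form, and 46 to 166 in the pools at 72 h against 24 h. For 4+ against free it gave 20 to 66 at 24 h, 6 to 15 at 48 h and 1 to 10 at 72 h, and for 4+ against 80S 1 to 12 at 24 h, 0 to 1 at 48 h and 0 to 10 at 72 h. A fit with 1 library in a group assumes that it varies like the others.

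With the replicate number as a block, 126 pairs passed at 72 h against 0 h, 167 at 48 h and 74 at 32 h; the numbers do not pair the libraries, and the block ended none of 53 calls of named genes. Over 589 fits of named genes under alternatives, 520 kept their call and 69 lost it. Of these, 11 were lost in fits of only the libraries compared (CG6051, ScsbetaA and Fmr1 at 32 h, rgn, robo2 and CG11889 at 48 h, Fmr1, Atet, Ras85D and fs(1)h at 72 h, and Ric), 7 with 1 read for an unlisted site (rgn, robo2, Pkc98E, Gbeta13F, rogdi, rin and PDZ-GEF) and 3 with sites up to 100 nt away added (Ric, Gbeta13F and rin). Depth also limits the pools, where a site is listed only from 10 reads upwards. Of 718 pairs found in the pools, 407 to 445 could be tested between 4+ ribosomes and free RNA.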
